A study of Mus musculus with 6 samples.

Results

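Immediate early and AP-1 genes are described here in kidneys after ischemia and reperfusion, as the 38 entries of the count table whose symbol belongs to a fixed list of these genes. The members were chosen with earlier results of these data known, so their counts beside shares of all genes are description only. The list holds 8 AP-1 and ATF genes, 3 small Maf and Myc genes, 3 EGR genes, 4 KLF genes, 3 NR4A genes, 5 MAPK phosphatases, 3 inhibitors of receptor and ERK signalling, 4 RNA decay and antiproliferative genes and 5 other early genes. All 38 were found among the 25031 entries, and all 38 were among the 15416 genes that passed the filter on low counts. Both groups were wild-type male C57BL/6 mice, 7 to 8 weeks old, whose kidneys on both sides were deprived of blood for 23 minutes at a core temperature of 37 °C and then reperfused. The 3 vehicle libraries came from mice given saline, and the 3 CePPy libraries from mice given (+)CePPy, cerium-doped polypyrrole nanoparticles with a positive charge, at 5 mg/kg into a vein right after the injury. No source used here states how long after injury the kidneys were taken, and kidneys without injury were not analysed here. Whether each library is a separate animal is not said in the labels, and p-values below therefore reflect only the variation among libraries, which may be technical.

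Immediate early genes are switched on within minutes of a stimulus from factors already present in the cell, without new protein synthesis. Stress and growth signals run through the MAPK kinases ERK, JNK and p38 to SRF, its ternary complex partners and CREB, which bind the promoters of these genes. Fos and Jun proteins pair through leucine zippers into AP-1, while EGR, KLF and NR4A proteins are other transcription factors of the same wave. Phosphatases of the DUSP family and the RNA decay factor tristetraprolin, the product of Zfp36, then shut the signal and the messages down. In kidney, this wave is known as an early response of tubule cells to ischemia.

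The promoters were searched for motifs of the kind through which these signals act. Printed are 5 of them, which together hold 5 of the 6 motifs searched, all but the AP-1 site. Those of Zfp36, Nr4a1, Dusp1 and Dusp5 belong to members with an unadjusted p under 0.05 below. Fos, which did not reach such a p, is printed as an AP-1 gene. RefSeq promoter windows on GRCm38.p6 were matched by symbol for 29 of the 38 members, and the 250 bases before each transcription start were searched on both strands. Printed 5′ to 3′ in the direction of the gene, they lie at chr12:85473640-85473889 (plus strand) for Fos, chr7:28379229-28379478 (minus strand) for Zfp36, chr15:101266596-101266845 (plus strand) for Nr4a1, chr17:26508473-26508722 (minus strand) for Dusp1 and chr19:53528895-53529144 (plus strand) for Dusp5. The last base printed is the one before the RefSeq transcription start, and capitals mark every motif match. Gene positions given further below are from GENCODE M21. The windows of Zfp36, Nr4a1 and Dusp1 lie inside those gene positions, and that of Dusp5 overlaps them in part.
Fos: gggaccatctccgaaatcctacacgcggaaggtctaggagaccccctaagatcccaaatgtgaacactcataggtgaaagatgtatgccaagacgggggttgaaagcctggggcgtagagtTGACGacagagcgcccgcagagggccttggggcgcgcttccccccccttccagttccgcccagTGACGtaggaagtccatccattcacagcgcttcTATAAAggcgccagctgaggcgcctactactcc
Zfp36: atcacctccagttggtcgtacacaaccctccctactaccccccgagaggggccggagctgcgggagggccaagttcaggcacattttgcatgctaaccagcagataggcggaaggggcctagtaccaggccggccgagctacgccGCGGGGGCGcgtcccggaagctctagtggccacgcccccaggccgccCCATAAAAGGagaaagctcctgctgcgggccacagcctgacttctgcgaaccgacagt
Nr4a1: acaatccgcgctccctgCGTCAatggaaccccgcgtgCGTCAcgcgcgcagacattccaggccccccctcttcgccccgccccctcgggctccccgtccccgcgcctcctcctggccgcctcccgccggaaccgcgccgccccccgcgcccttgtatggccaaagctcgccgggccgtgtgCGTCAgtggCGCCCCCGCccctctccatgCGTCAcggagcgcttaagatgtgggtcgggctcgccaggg
Dusp1: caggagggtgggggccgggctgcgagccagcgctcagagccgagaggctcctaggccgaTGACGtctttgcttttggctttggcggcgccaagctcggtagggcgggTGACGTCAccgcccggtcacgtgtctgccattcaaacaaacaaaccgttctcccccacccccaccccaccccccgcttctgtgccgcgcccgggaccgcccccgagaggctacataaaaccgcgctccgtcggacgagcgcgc
Dusp5: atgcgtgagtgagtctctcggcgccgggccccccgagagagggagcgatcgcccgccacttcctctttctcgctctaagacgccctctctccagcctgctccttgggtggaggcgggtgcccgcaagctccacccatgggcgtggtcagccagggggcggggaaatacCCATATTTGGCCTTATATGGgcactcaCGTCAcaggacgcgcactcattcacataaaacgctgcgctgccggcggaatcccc

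The motifs were the CArG box that SRF binds, the cyclic AMP response element TGACGTCA and its shorter core TGACG, which every full element also holds, the AP-1 site TGANTCA, the EGR site GCGNGGGCG and the TATA box TATAAA. In the sequences above, Fos held 2 TGACG cores and a TATA box, Zfp36 an EGR site and a CArG box, and Nr4a1 4 TGACG cores and an EGR site, all on the opposite strand. Dusp1 held a TGACG core and a full cyclic AMP element, and Dusp5 had 2 CArG boxes side by side and a TGACG core on the opposite strand. Over the 29 members, the TGACG core was found in 17 (58.6%), against 17.8% of all 32851 windows of this length and 24.6% of the 14374 windows of tested genes. An EGR site was found in 10 members (34.5%), against 4.7% of all windows and 8.45% of those of tested genes. CArG boxes were found in 3 members (Zfp36, Dusp5 and Egr2), against 1.47% of all windows and 1.16% of those of tested genes. The full element was found in 3 (Dusp1, Errfi1 and Maff), against 1.55% and 2.4%. The TATA box was found in 5 members, against 12.4% of all windows and 7.04% of those of tested genes. The AP-1 site was found in 2 members, against 6.75% and 4.91%. Shares of the members are per gene and the others per window. A member can have several windows. Counted by window, the TGACG core was in 23 of the members' 39, the EGR site in 10 and the CArG box in 6. These shares are not matched for base composition, and the members' windows were richer in G and C. Their median was 64.0%, against 52.4% over all windows and 59.2% over those of tested genes. These matches are letters in a window and do not show binding. Sites further upstream were not searched, and Egr1 was among the members without a window.

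**Figure D1:**
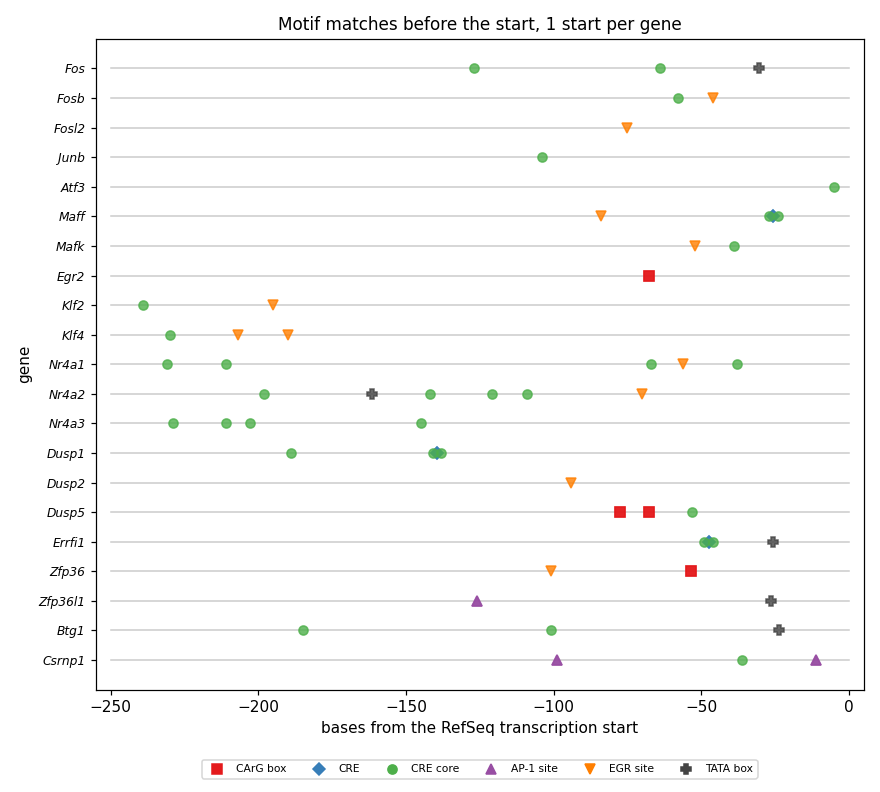
Motif matches in the 250 bases before the transcription start (x axis, bases from the RefSeq start) of the members that held any (rows). Symbols mark the motif, and for a gene with several starts the lowest-coordinate start with a match is drawn. TGACG cores (circles, CRE core in the key) are the most frequent mark, and the core of Egr2 lies at starts not drawn, while CArG boxes (squares) are seen in Zfp36, Dusp5 and Egr2.

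The libraries held between 29762157 and 37415213 counts, so that 1 count was worth 0.0266 to 0.0333 CPM, counts scaled to library size with the TMM method. The gene models of the members were compact: they spanned a median of 5608 bases in 4 merged exon blocks, against 23896.5 bases and 9 blocks over 14468 tested genes with a model. CePPy 1 stood apart from all others on the first principal component of log2 CPM, at 56.8, where CePPy 2 and CePPy 3 lay at 3.8 and 16.0 and the vehicle libraries between -29.8 and -18.1. Markers of kidney tubules were present, with Slc34a1 and Lrp2 of the proximal tubule at vehicle means of 1095 and 614 CPM and Umod of the thick ascending limb at 2596 CPM.

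The comparison of CePPy with vehicle asks whether the levels of these genes differed between the treatments in injured kidneys. Whether the injury had induced them was not tested. Most members had lower values after CePPy: 31 of 38 had a log2 fold change below 0, and the median over the 38 was -0.28, against 0.00 over all genes tested. The values lower in CePPy included those of Zfp36, Nr4a1, Dusp5, Dusp1 and Egr1, which had the 5 lowest log2 fold changes of the members, between -1.15 and -0.91. No single member passed the edgeR test over all genes, where the lowest adjusted p among members was 0.102 (0 of 38, with 0.00649% of all genes called in either direction). An unadjusted p under 0.05 was reached by 13 members, all with lower values in CePPy, where 9.37% of all genes reached it with lower values and 9.65% with higher ones. The 3 CePPy values all lay below the 3 vehicle values for 18 members, where 14.0% of all genes did so, and all above for 0 members, where 12.3% did. DESeq2, another count test, called 6 members lower at an adjusted p under 0.05 (Fosl1, Klf2, Nr4a1, Dusp1, Dusp5 and Ier2), where 3.43% of the genes with an adjusted p were called lower.

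The size of the difference depended on CePPy 1. Summed over the 38 members, the level was 2556, 2570 and 2930 CPM in vehicle 1, 2 and 3 and 1579, 2326 and 2240 CPM in CePPy 1, 2 and 3, so the groups did not overlap and CePPy 1 was lowest by far. CePPy 1 was the lowest of the 6 libraries for 29 of 38 members (76.3%), while it was lowest for 26.6% of all genes tested. Vehicle 3 was the highest for 14 members (36.8%), against 14.6% of all genes. Without CePPy 1 the median of the members was -0.12, with an unadjusted p under 0.05 for 13 of them, 12 of which were among the 13 above, where 17.2% of all genes reached it in either direction. Without CePPy 2 the median was -0.43 and edgeR called 4 members (Junb, Jund, Nr4a1 and Dusp5) and 5.17% of all genes. Without vehicle 3, 7 of the 13 kept an unadjusted p under 0.05 and no other member reached it, which is 7 of 38 where 13.1% of all genes reached it in either direction.

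**Figure D2:**
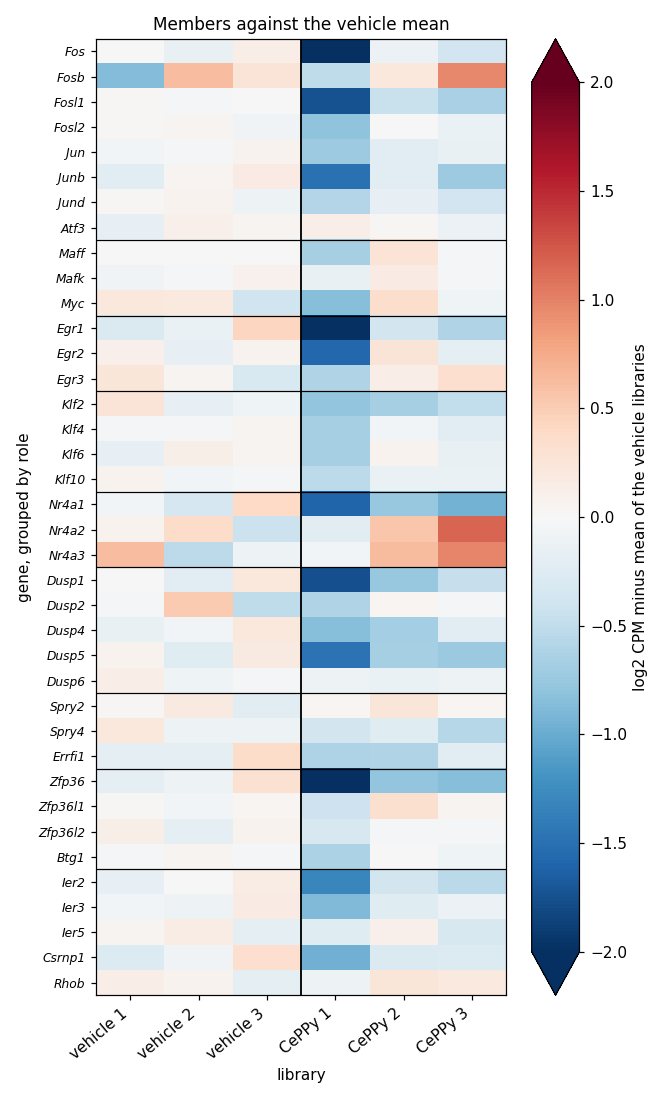
Each cell gives the log2 CPM of a member (rows, grouped by role) in a library (columns) minus the mean of the 3 vehicle libraries. Blue is lower and red is higher, and the colour scale ends at 2 log2 units in each direction. The CePPy 1 column is blue for most members and darkest for Fos, Egr1 and Zfp36, while Nr4a2 and Nr4a3 are red in CePPy 2 and CePPy 3.

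Markers of cell types were measured in the same libraries. Over all genes tested, 9.37% had lower and 9.65% higher values with an unadjusted p under 0.05. In the neutrophil list, 5 of the 5 tested markers had lower values with an unadjusted p under 0.05, and their summed level was 33.3 to 49.8 CPM in vehicle and 9.62 to 22.4 CPM in CePPy, lowest in CePPy 1. Of 8 proximal tubule markers, 4 had higher values with an unadjusted p under 0.05, with sums of 11557 to 12780 CPM in vehicle and 12020 to 22170 CPM in CePPy. For the thick ascending limb this held for 4 of 5 markers, with sums of 2666 to 2976 and 3453 to 6385 CPM, and both sums were highest in CePPy 1. For the distal convoluted tubule it held for 2 of 4 markers, with sums of 300 to 378 and 356 to 624 CPM. For the collecting duct it held for 4 of 5, with sums of 202 to 255 and 300 to 415 CPM, highest in CePPy 3. Of 5 podocyte markers, 2 had lower values with such a p, with sums of 355 to 417 and 351 to 379 CPM. Of 6 fibroblast markers, 1 had higher values with such a p, with sums of 932 to 1310 and 1229 to 1435 CPM. The 4 smooth muscle markers had sums of 364 to 520 and 229 to 284 CPM, with 2 lower at an unadjusted p under 0.05. None of the 7 endothelial or 7 macrophage markers reached such a p. Endothelial sums were 597 to 674 and 601 to 634 CPM, and macrophage sums 213 to 256 and 190 to 239 CPM. The tested T and NK cell, B cell, erythroid and adrenal markers did not reach it either. T and NK cell sums were 2.70 to 12.7 and 4.53 to 16.2 CPM, and erythroid sums 233 to 296 and 238 to 324 CPM. Of 3 adipose markers tested, 1 had higher values with such a p, with sums of 51.7 to 62.6 and 64.8 to 82.0 CPM. The part of these cells in the results on early genes was not tested. In whole kidney, fewer cells of a type and less RNA per cell cannot be told apart.

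Among the AP-1 genes, 4 of 8 had lower values with an unadjusted p under 0.05: Jund, Fosl1, Junb and Jun. Fos, the founding partner of the family, measured 18.1, 16.2 and 19.8 CPM in vehicle 1, 2 and 3 and 4.42, 16.6 and 13.7 CPM in CePPy 1, 2 and 3. Only CePPy 1 was far below the others, CePPy 2 lay within the vehicle range, and the fit gave a log2 fold change of -0.64 with an SE of 0.40 (edgeR adjusted p = 0.416). Without CePPy 1 it was -0.24 for Fos. Fosl1, the Fra-1 gene (chromosome 19, 5447547 to 5455946, plus strand, GRCm38), measured 20.8, 20.1 and 20.5 CPM in vehicle against 6.11, 15.0 and 13.1 in CePPy. Vehicle values lay within 1 CPM of each other and every CePPy value was lower, with a log2 fold change of -0.85 with an SE of 0.28 (edgeR adjusted p = 0.179). It was -0.54 without CePPy 1. Fosl2, the Fra-2 gene, had means of 51.7 ± 2.16 and 43.0 ± 11.9 CPM (SD over 3 libraries, as in all such values here), and Fosb only 0.946 ± 0.461 and 1.11 ± 0.578 CPM, from 16 to 52 counts per library.

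Jun, Junb and Jund are the Jun genes of the list. Jun, which pairs with Fos and itself, measured 113, 115 and 123 CPM in vehicle and 70.9, 101 and 105 CPM in CePPy, a log2 fold change of -0.34 with an SE of 0.15 (edgeR adjusted p = 0.261). Without CePPy 1 that of Jun was -0.18. Junb (chromosome 8, 84974484 to 84978718, minus strand) measured 104, 127 and 137 CPM and then 43.5, 105 and 73.7 CPM, so that CePPy 2 was above vehicle 1. Its log2 fold change was -0.73 (SE 0.28, edgeR adjusted p = 0.221). Without CePPy 1 it was -0.45. Jund, the member of the family with high basal levels in many tissues (chromosome 8, 70698949 to 70700616, plus strand), measured 206, 212 and 188 CPM against 134, 180 and 154 CPM. Every CePPy value of Jund lay below the vehicle range, with a log2 fold change of -0.37 with an SE of 0.12 (edgeR adjusted p = 0.167). That of Jund was -0.27 without CePPy 1. Atf3, a stress-induced factor that can pair with Jun, measured 15.5, 18.5 and 17.9 CPM in vehicle and 18.9, 17.6 and 15.8 in CePPy. Its groups overlapped fully, with a log2 fold change of 0.01 and a 95% interval from -0.26 to 0.29.

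The small Maf proteins lack an activation domain and pair with NRF2 and other leucine zipper factors, and Myc drives growth genes. None of the 3 reached an unadjusted p under 0.05. Maff measured 19.4 ± 0.0387 CPM in vehicle and 18.2 ± 5.60 in CePPy, and Mafk 31.6 ± 1.76 and 31.5 ± 3.51 CPM. Myc measured 50.6, 50.1 and 33.1 CPM in vehicle and 24.3, 56.0 and 41.4 CPM in CePPy. One library in each group was low (vehicle 3 and CePPy 1), and the 95% interval of the log2 fold change ran from -0.80 to 0.53.

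EGR genes encode zinc finger factors that follow ERK signalling. Egr1, the most abundant of them, measured 125, 139 and 204 CPM in vehicle and 30.8, 118 and 101 CPM in CePPy. All CePPy values were lower than all vehicle values, but both groups were spread, and the log2 fold change of -0.91 had an SE of 0.43 (edgeR adjusted p = 0.301). Without CePPy 1 it was -0.51. Egr2 measured 10.5 ± 1.03 and 8.35 ± 4.55 CPM, with CePPy 2 the highest of the 6 libraries at 12.5 CPM. Egr3 was near the lower end of what was tested, with 15 to 29 counts per library, and its log2 fold change of -0.02 had a 95% interval from -1.0 to 0.97.

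All 4 KLF genes had lower mean values in CePPy, and 1 reached an unadjusted p under 0.05. Klf2, a factor that in vessels is known for its induction by flow (chromosome 8, 72319033 to 72321656, plus strand), measured 40.6, 30.4 and 31.9 CPM in vehicle and 19.6, 21.6 and 24.1 CPM in CePPy. Its CePPy libraries lay close together and all below vehicle, including CePPy 2. The log2 fold change was -0.66 (SE 0.14), with the lowest edgeR adjusted p of all members at 0.102, and it was -0.59 without CePPy 1. Klf4, a factor of endothelium and epithelium, measured 21.6, 21.5 and 22.9 CPM and then 13.9, 21.3 and 18.8 CPM, so that the groups came close but did not overlap. The log2 fold change of Klf4 was -0.29 (SE 0.15, edgeR adjusted p = 0.347). Leaving out CePPy 1 gave -0.13 for Klf4. Klf6 measured 129 ± 13.2 and 111 ± 27.4 CPM and Klf10, which is induced by TGF-beta, 36.7 ± 1.67 and 30.8 ± 4.69 CPM.

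NR4A genes encode orphan nuclear receptors whose activity follows their abundance. Nr4a1, also called Nur77 (chromosome 15, 101254269 to 101274795, plus strand), measured 17.7, 14.6 and 24.2 CPM in vehicle and 6.02, 10.8 and 9.5 CPM in CePPy. The groups were well apart, and the CePPy mean was 46.7% of the vehicle mean, with a log2 fold change of -1.10 with an SE of 0.25 (edgeR adjusted p = 0.116). Without CePPy 1 it was -0.88. Its 2 relatives went the other way in value, at much lower levels. Nr4a2 measured 0.947, 1.18 and 0.654 CPM in vehicle and 0.760, 1.36 and 2.10 CPM in CePPy, from 22 to 63 counts per library. Nr4a3 measured 1.11, 0.471 and 0.654 CPM and then 0.675, 1.12 and 1.43 CPM. The groups overlapped for both, and the 95% intervals of their log2 fold changes, -0.44 to 1.63 for Nr4a2 and -0.56 to 1.59 for Nr4a3, include differences in either direction.

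**Figure D3:**
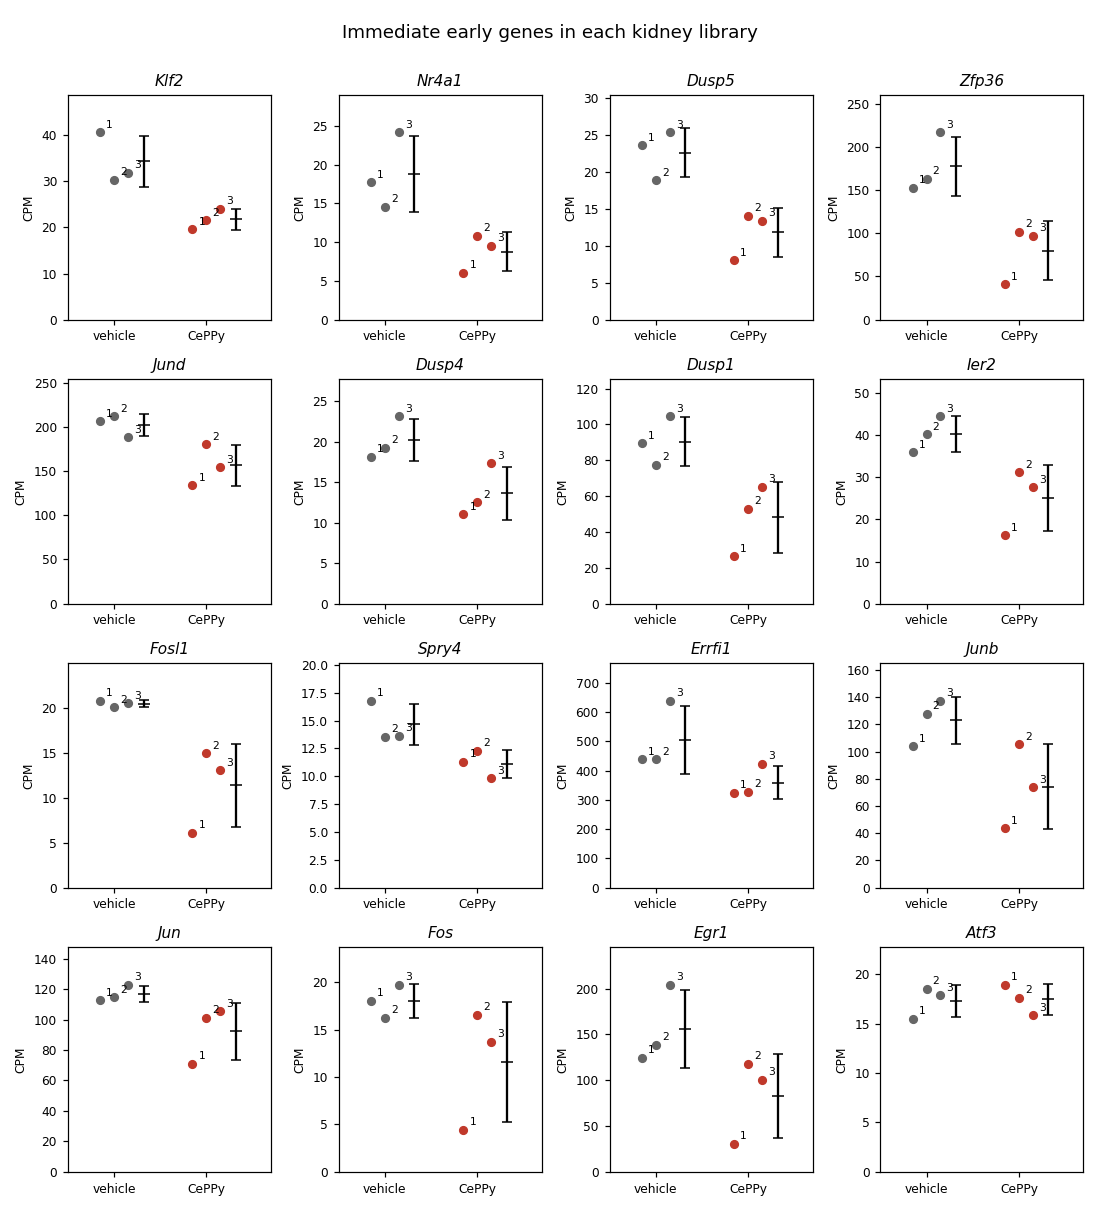
CPM (y axes, from 0) of the 13 members with an unadjusted p under 0.05, in order of p, followed by Fos, Egr1 and Atf3. Points are libraries, numbered by replicate, and the bar beside each group is the mean ± SD of 3 libraries. For Klf2 all 3 CePPy libraries lie close together below vehicle, while for Fos and Egr1 the point of CePPy 1 is far below the other two.

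The MAPK phosphatases remove phosphate from ERK, JNK and p38, and 3 of 5 had lower values with an unadjusted p under 0.05. Dusp1, a nuclear phosphatase for p38 and JNK (chromosome 17, 26505590 to 26562128, minus strand), measured 89.5, 77.4 and 104 CPM in vehicle and 26.4, 53.0 and 65.3 CPM in CePPy. Every CePPy library was lower than every vehicle library, with a log2 fold change of -0.91 with an SE of 0.29 (edgeR adjusted p = 0.168). Dusp5, a nuclear phosphatase of ERK (chromosome 19, 53529109 to 53542431, plus strand), measured 23.6, 18.9 and 25.3 CPM and then 8.05, 14.1 and 13.4 CPM. Its CePPy mean was 52.4% of the vehicle mean, with a log2 fold change of -0.93 with an SE of 0.22 (edgeR adjusted p = 0.116). With CePPy 1 left out, the log2 fold change was -0.61 for Dusp1 and -0.72 for Dusp5.

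Dusp4, another nuclear phosphatase, measured 18.2, 19.3 and 23.1 CPM in vehicle and 11.1, 12.5 and 17.3 CPM in CePPy, again without overlap (a log2 fold change of -0.57 with SE 0.18, adjusted p = 0.167 in edgeR). The log2 fold change of Dusp4 was -0.44 without CePPy 1. Dusp6, the cytoplasmic phosphatase of ERK, measured 84.4, 72.6 and 74.8 CPM in vehicle and 71.8, 70.5 and 71.8 CPM in CePPy. The groups of Dusp6 did not overlap but lay side by side, and the 95% interval of its log2 fold change ran from -0.30 to 0.07. Dusp2 measured 2.00 ± 0.720 and 1.69 ± 0.395 CPM.

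Of the 3 inhibitors of receptor and ERK signalling, 2 had lower values with an unadjusted p under 0.05. Errfi1 encodes MIG6, which binds and blocks the EGF receptor, and it had the highest level per kilobase of exon of all members. It measured 439, 438 and 640 CPM in vehicle and 325, 327 and 423 CPM in CePPy, a log2 fold change of -0.50 with an SE of 0.18 (edgeR adjusted p = 0.198). Vehicle 3 was far above the other libraries. The log2 fold change was -0.29 without vehicle 3 and -0.43 without CePPy 1. Spry4 of the Sprouty family measured 16.8, 13.5 and 13.6 CPM and then 11.3, 12.3 and 9.80 CPM, a log2 fold change of -0.40 with an SE of 0.14 (edgeR adjusted p = 0.196). Spry2, its relative, measured 17.8 ± 2.40 and 19.1 ± 1.61 CPM, with overlapping groups.

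Zfp36 had the lowest log2 fold change of all members. It encodes tristetraprolin, which binds AU-rich messages of cytokines and early genes and recruits the deadenylase (chromosome 7, 28376784 to 28380253, minus strand). It measured 153, 163 and 217 CPM in vehicle and 40.8, 102 and 97.1 CPM in CePPy, so that all CePPy libraries were lower and CePPy 1 the lowest. The CePPy mean was 45.0% of the vehicle mean, with a log2 fold change of -1.15 with an SE of 0.32 (edgeR adjusted p = 0.139), and it was -0.83 without CePPy 1. Its paralogs, which share the zinc fingers, did not reach an unadjusted p under 0.05. Zfp36l1 measured 215 ± 7.56 and 217 ± 53.6 CPM, with the lowest and the highest of the 6 libraries both in CePPy, at 161 and 268 CPM. Zfp36l2 measured 98.7 ± 10.8 and 90.1 ± 10.2 CPM, and Btg1, an antiproliferative gene whose product also binds the deadenylase, 113 ± 3.81 and 97.5 ± 21.8 CPM. Reads of Zfp36l1 and Btg1 may be shared with annotated near-copies named as their pseudogenes.

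In the remaining group 1 of 5 genes, Ier2, reached an unadjusted p under 0.05. Ier2, a nuclear early response protein (chromosome 8, 84661331 to 84662852, minus strand), lies 311632 bases from Junb, and the pair were the only members within 1000000 bases of each other. It measured 35.9, 40.3 and 44.4 CPM in vehicle and 16.3, 31.2 and 27.7 CPM in CePPy, a log2 fold change of -0.68 with an SE of 0.22 (edgeR adjusted p = 0.169). Leaving out CePPy 1 gave -0.45 for Ier2 and -0.18 for Ier3. Ier3, a survival gene known as IEX-1, measured 59.3, 57.4 and 69.5 CPM and then 33.5, 52.4 and 57.0 CPM. Its groups came within 1 CPM of each other, with a log2 fold change of -0.38 with an SE of 0.19 (edgeR adjusted p = 0.31). Csrnp1 measured 19.3 ± 4.20 and 13.6 ± 3.35 CPM, Ier5 33.6 ± 3.90 and 30.3 ± 4.93 CPM, and Rhob, a small GTPase with an unstable message, 119 ± 13.8 and 129 ± 16.1 CPM. Only Csrnp1 of these 3 had groups that did not overlap.

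**Figure D4:**
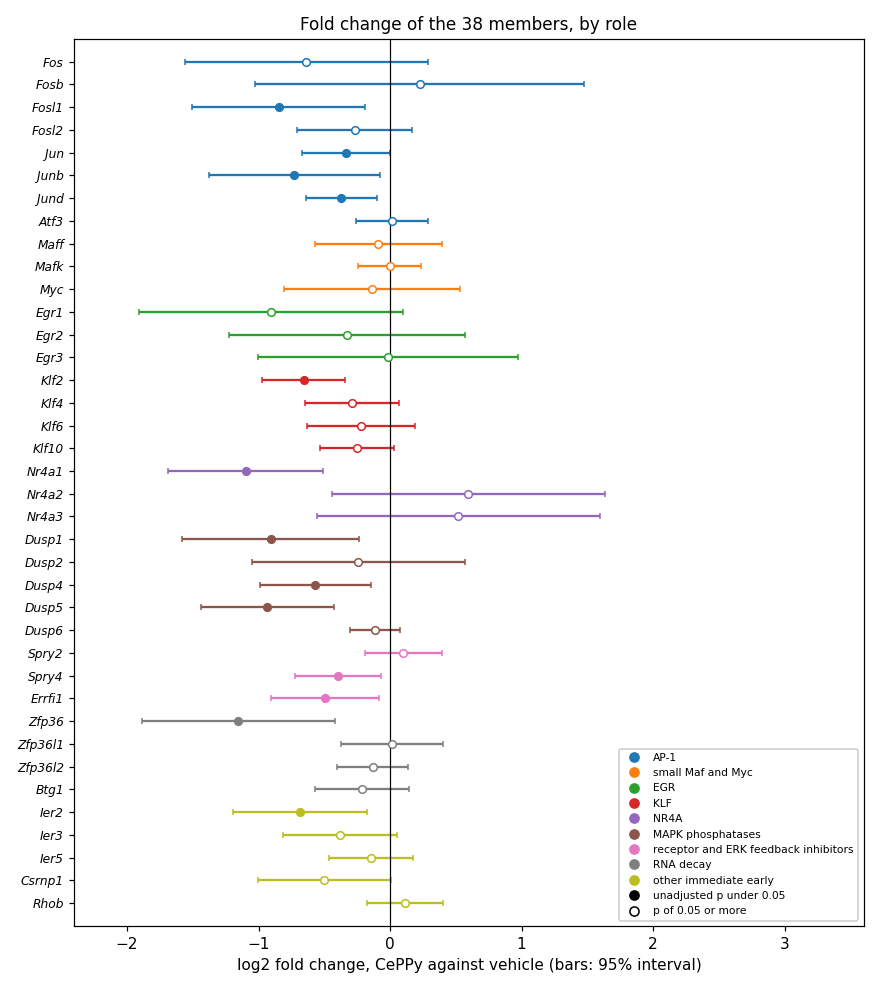
Log2 fold change of each member, CePPy against vehicle, with its 95% interval (x axis), grouped by role (colours). Filled points have an unadjusted p under 0.05 and open points do not. All 13 filled points lie below 0. The widest intervals are those of Fosb, Nr4a3 and Nr4a2, with few counts, followed by that of Egr1, with many.

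Exons of 11 members overlap exons of a gene on the opposite strand in GENCODE M21, among them 7 of the 13, and no source used here says whether counting used strand. For Fosl1 the overlap with Ccdc85b covered 1163 bases, and Ccdc85b measured 15.5 and 13.8 CPM in the groups. For Junb it covered 173 bases of Prdx2, at 175 and 177 CPM, and for Dusp1 11 bases of Ergic1, at 137 and 117 CPM. Jun, Jund, Dusp5 and Zfp36 overlap antisense RNA genes with no value among the genes tested.

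Levels per kilobase of exon, used for a rough comparison of genes, ranged widely. The length merges the exons of all GENCODE M21 transcripts of a gene and may exceed that of the message present. The annotation used for counting is not given. Errfi1 was highest in vehicle at 141 ± 32.4 CPM per kb, followed by Jund at 121 ± 7.32 and Zfp36l1 at 71.9 ± 2.53. Errfi1 and Jund differed by less than the spread of Errfi1. Next came Ier3 at 54.9 ± 5.79, Junb at 53.4 ± 7.48, Zfp36 at 51.2 ± 9.92 and Rhob at 50.8 ± 5.88 CPM per kb, which do not differ beyond their spread. In CePPy, Errfi1 stood at 100 ± 15.7, Jund at 93.7 ± 13.9 and Zfp36l1 at 72.7 ± 17.9 CPM per kb, while Zfp36 was at 23.0 ± 9.79. Fos itself was at only 7.66 ± 0.747 CPM per kb in vehicle. Fosb, Egr3, Nr4a2 and Nr4a3 all lay between 0.125 and 0.228 CPM per kb.

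**Figure D5:**
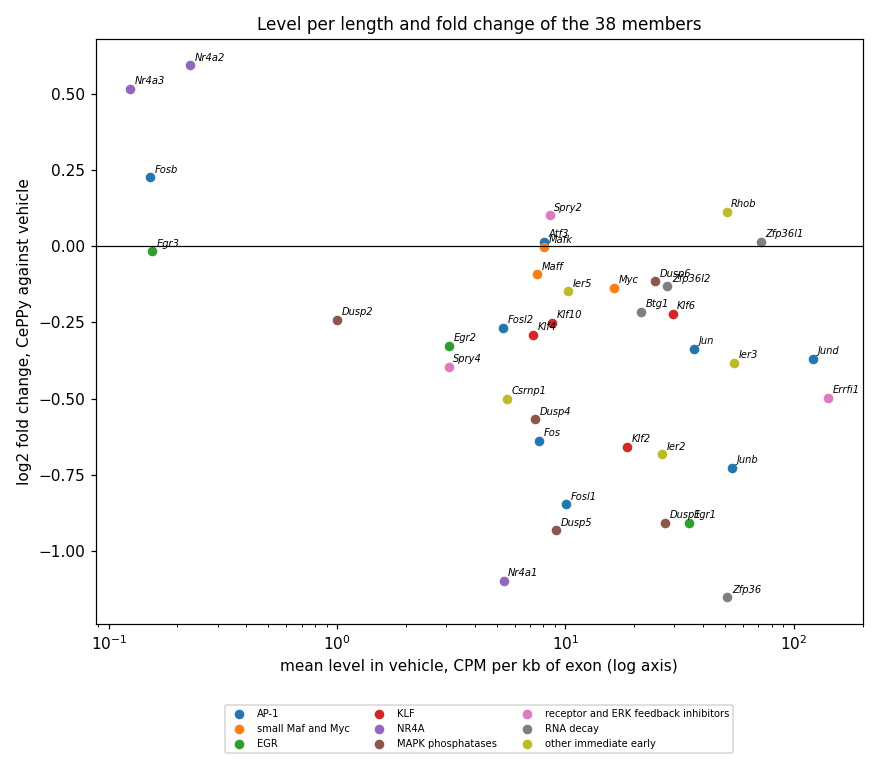
Mean level in vehicle in CPM per kb of exon (x axis, log scale) against the log2 fold change (y axis) of each member, coloured by role. Nr4a2, Nr4a3 and Fosb, with the 3 highest log2 fold changes, sit at the far left, and Zfp36, Egr1, Dusp1 and Junb are among those both abundant and low in CePPy.

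Genes that act upstream were counted by the same rule, by which 9.37% of all genes were lower and 9.65% higher. Of 29 genes of the MAPK cascade, 4 (13.8%) had lower and 0 higher values with an unadjusted p under 0.05. The median log2 fold change of the cascade was -0.05. The ERK1 gene Mapk3 measured 109 ± 6.21 CPM in vehicle and 89.2 ± 6.89 in CePPy, and Map2k2, the kinase above it, 140 ± 5.03 and 119 ± 5.71 CPM. Mapk13, a p38 gene, measured 20.2 ± 3.0 and 13.5 ± 2.97 CPM without overlap, a log2 difference of -0.59. Over the list, log2 fold changes ran from -0.77 to 0.25. Of 12 SRF, ternary complex and CREB genes, 2 (16.7%) were lower and 0 higher by the same rule. Their median was -0.09, with a range from -0.31 to 0.57. Srf itself measured 40.6 ± 2.08 and 32.7 ± 1.15 CPM, without overlap (a log2 fold change of -0.31 with SE 0.08, adjusted p = 0.125 in edgeR), and its partner Elk4 31.2 ± 1.15 and 26.5 ± 1.31 CPM.

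Beside the members, 18 other leucine zipper factors of the AP-1, ATF and MAF families had a median of 0.05. At an unadjusted p under 0.05, 3 were lower and 3 higher (16.7% each), against 9.37% and 9.65% of all genes. Cebpb, a factor of the acute phase and of myeloid cells, measured 64.5 ± 5.45 and 31.7 ± 7.37 CPM (a log2 fold change of -1.02 with SE 0.16, adjusted p = 0.0813 in edgeR), and Atf5 53.4 ± 5.65 and 34.1 ± 6.5 CPM. Nfil3, a repressor linked to the clock, had higher values, at 7.71 ± 0.643 and 11.8 ± 2.80 CPM. Of 40 other early response genes tested, 8 (20%) were lower and 1 (2.5%) higher by the same rule. Their median was -0.21, and 33 had values below 0. Gadd45g, with the lowest p of this list, measured 54.8 ± 7.09 CPM in vehicle and 26.8 ± 3.52 in CePPy. Its log2 fold change was -1.03 with SE 0.13 (adjusted p = 0.0739 in edgeR). Plk3, a stress kinase, measured 33.9, 34.2 and 68.7 CPM in vehicle and 11.2, 18.1 and 19.2 CPM in CePPy, high in vehicle 3. The log2 fold change of Plk3 was -1.50 with SE 0.32 (adjusted p = 0.102 in edgeR). The one with higher values was Cited2, a p300 binding regulator, at 45.0 ± 2.77 and 59.8 ± 4.97 CPM. Among 11 other MAPK phosphatases and feedback inhibitors, 3 (27.3%) were lower and 1 (9.09%) higher, with a median of -0.13. Dusp9, the higher one, measured 3.58 ± 0.258 and 7.60 ± 2.38 CPM, and Dusp14 39.9 ± 3.46 and 27.3 ± 7.05 CPM.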

How the data were processed

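Kidney RNA of 6 libraries was sequenced after TRIzol extraction with an mRNA library kit, per the labels' protocols. The authors deposited 1 table of whole-number read counts per gene, not normalized, and the labels tie its columns to the samples. The submitters' processing notes name TopHat2, Cufflinks, DESeq and GRCm38, while the counting program, strand setting and annotation are not given in the sources used. Groups and replicate numbers came from the sample titles. Genes were filtered with filterByExpr and scaled by TMM, and edgeR 4.0.16 (R 4.3.3) compared the groups with its quasi-likelihood test, with Benjamini-Hochberg adjustment over 15416 genes, a threshold of 0.05 and 4 residual degrees of freedom. Intervals are 95% and use the moderated degrees of freedom. Log2 CPM used a prior count of 2. DESeq2 1.42.0, limma-voom (limma 3.58.1), no filter, other size factors, a replicate block and leaving out each library were alternatives. The fits were tested on simulated data. Exon lengths and positions are from GENCODE M21, promoters from RefSeq. The members, lists and naming rule were chosen with earlier results of these data known. Every member is named, with each library's value for those with an unadjusted p under 0.05, the lowest p of a role, or chosen for their role. Replicates differed by more than counting noise (chi-square per degree of freedom 19.7 to 106).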

Additional observations from a re-analysis of the deposited data

How the results depend on the processing

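Of the 13 members with an unadjusted p under 0.05, all had lower values in CePPy under each of the 12 alternatives, and Fosl1, Klf2, Nr4a1, Dusp5 and Zfp36 kept such a p in all 12. Jun and Errfi1 kept it in 8 each. With DESeq2, 6 members had an adjusted p under 0.05 in place of 0, and leaving out a library gave 0 to 4. The count of members with an unadjusted p under 0.05 ranged from 7 (without vehicle 3) to 19 (without CePPy 2), all with lower values, where 13.1% and 24.0% of all genes reached it in either direction. With the replicate number as a replicate block it was 16, where 17.1% of all genes reached such a p in either direction. In that fit 0 members and 0% of all genes had an adjusted p under 0.05. The labels do not say that the numbers pair the samples. Deviations of same-numbered libraries correlated at -0.15, 0.10 and -0.02 across genes, and those of differently numbered ones at -0.148 to 0.18. These ranges overlap and do not decide whether the numbers pair the samples. Under the block, Egr1, Ier3 and Csrnp1 also had an unadjusted p under 0.05. The median log2 fold change of the members was -0.28 with either filter, -0.28 with other size factors, -0.31 with limma-voom and -0.22 with sample weights. For genes with few counts, such as Fosb, Egr3, Nr4a2 and Nr4a3, the 95% intervals spanned about 1 log2 unit on each side, and those of Egr1 and Fos, with many more counts, were about as wide. The part of depth in these widths was not tested.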

Other observations

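Further lists linked to these genes held other changes in value. One list held 13 tested genes linked to AP-1 in the literature of injury and invasion, with a median log2 fold change of -0.24. Of these, 4 (30.8%) had lower and 1 (7.69%) higher values with an unadjusted p under 0.05. Over all genes, 9.37% were lower and 9.65% higher at such a p. Mmp9, a gelatinase also made by neutrophils, had 6.79 ± 0.254 CPM with vehicle and 3.04 ± 0.760 CPM with CePPy; its log2 difference was -1.16 with SE 0.22 (adjusted p = 0.0951 in edgeR). Plaur, the urokinase receptor gene, measured 58.3 ± 2.44 and 39.5 ± 8.65 CPM, and the cytokine gene Il11 7.50 ± 0.819 and 3.82 ± 1.76 CPM. The median of the list per library was -0.71 in CePPy 1, -0.04 in CePPy 2 and -0.26 in CePPy 3, against the vehicle mean.

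Of 22 other mRNA decay factors tested, 4 (18.2%) had lower and 1 (4.55%) higher values by the same rule, with a median of -0.06. Cnot9 of the deadenylase complex measured 40.6 ± 2.67 and 33.1 ± 0.613 CPM, and Btg2, a relative of Btg1, 80.9 ± 16.2 and 52.6 ± 16.8 CPM. Of 11 other KLF genes tested, 0 reached an unadjusted p under 0.05 in edgeR, and DESeq2 called 0. Among the members, the median per library against the vehicle mean was -0.66 in CePPy 1, -0.08 in CePPy 2 and -0.15 in CePPy 3, while that of the 5 MAPK phosphatases was -0.86, -0.67 and -0.21.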
